A study of Mus musculus with 12 samples.

Results

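The respiratory chain and ATP synthase are the machines of the inner mitochondrial membrane that turn electrons from food into ATP. Complex I (NADH dehydrogenase), complex II (succinate dehydrogenase), complex III (ubiquinol-cytochrome c reductase) and complex IV (cytochrome c oxidase) carry the electrons and, except for complex II, pump protons, and complex V (ATP synthase) lets the protons flow back to make ATP. Their subunits come from 2 genomes, since a small core of complexes I, III, IV and V is encoded by mitochondrial DNA and everything else by nuclear genes that are transcribed one by one. The mitochondrial genes are transcribed from either strand as long joint RNAs that are then cut into messengers, transfer RNAs and ribosomal RNAs. Activated and helper T cells, Th17 cells among them, build up this apparatus as they grow, and STAT3 is known in several cell types to have a role at mitochondria besides that in the nucleus.

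The genes described are those annotated as protein-coding whose symbols begin with the names of subunits of the 5 complexes, and 99 of the 55401 genes in the count table met this rule. Of these, 86 are nuclear, with 38 in complex I, 4 in complex II, 8 in complex III, 18 in complex IV and 18 in complex V. The other 13 lie on mitochondrial DNA, with 7 in complex I, 1 in complex III, 3 in complex IV and 2 in complex V. The rule goes by name, so that Ndufa4 stands with complex I although the protein is known as a complex IV subunit, and 13 rows of other types with a matching symbol, mostly processed pseudogenes, stayed out. A gene was tested when its counts passed the filter on low values, which 82 nuclear and all 13 mitochondrial genes did. The 4 that did not were Cox7b2, Cox8b, Cox8c and a duplicate identifier of Atp5o at 0 counts in every library.

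RNA was sequenced from mouse Th17 cells of wild-type genotype, made in culture from naive T cells of lymph nodes. They were treated for 4 h with Kira8, an inhibitor of the endoplasmic reticulum stress sensor IRE1alpha, with Stattic, an inhibitor of the transcription factor STAT3, with both (Kira8+Stattic), or with neither (None). Each of the 4 groups had 3 libraries, and the labels do not say whether these came from separate cultures or animals or whether None received a solvent, so that p-values reflect only how far these libraries differ, possibly for technical reasons. Kira8 replicate 2 and Stattic replicate 2 stood apart, with 19813462 and 9275672 counts against 51669791 to 85890966 in the other 10 libraries. All genes on mitochondrial DNA, those of ribosomal and transfer RNAs included, took 61.6% and 10.7% of the counts in these 2 libraries, against 3.38% to 5.22%. In them 40.4% and 33.3% of the olfactory receptor genes, which T cells should lack, had counts, against 3.96% to 10.0% in the others. Gm10800, counted for satellite-like repeats, took 2.91% and 19.1% of their counts, against at most 0.00826%. The 2 libraries were left out on depth, olfactory receptor genes and such repeats, known from earlier results. The mitochondrial share is an outcome here and was not a ground for this choice. The results are therefore from 10 libraries, with 2 of Kira8, 2 of Stattic, 3 of Kira8+Stattic and 3 of None. The fit of all 12 is given beside these results. All 8 T cell markers had counts in every library. Summed B cell markers stood at 53.4 to 62.3 CPM (the counts-per-million scale) with Kira8, 16.5 to 29.8 CPM with Stattic, 18.8 to 46.8 CPM with Kira8+Stattic and 156 to 183 CPM in None, with none of the 8 at 0, and summed markers of CD8 T and NK cells at 94.5 to 118 CPM, 191 to 260 CPM, 109 to 185 CPM and 412 to 623 CPM in the same order of groups, with at most 1 of the 8 at 0 in a library. Summed Th17 markers stood at 761 and 789 CPM with Kira8, 736 and 771 CPM with Stattic, and 793 to 854 CPM with Kira8+Stattic. In None they were far apart, at 1338, 2912 and 769 CPM in replicates 1 to 3. In Kira8+Stattic replicates 1 and 2, 1 of the 8 Th17 markers was at 0. The part of these markers and cell types in the results was not tested. In bulk RNA, fewer cells of a type and less RNA per cell cannot be told apart.

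Levels are CPM after scaling between libraries by the trimmed mean of M values (TMM), and a gene is called changed when the quasi-likelihood test of edgeR, adjusted by Benjamini-Hochberg over all 21239 genes tested, gave an adjusted p under 0.05. Log2 changes are given with the standard error of the fit. Per kilobase of exons, Atp5b was the highest nuclear gene in None at 235 CPM, before Atp5a1 at 215 CPM, Cox4i1 at 111 CPM and Uqcrh at 107 CPM, and the mitochondrial genes ran from 621 CPM for mt-Nd3 to 8176 CPM for mt-Co1. The nuclear genes together made up 0.525% to 0.556% of all counts with Kira8, 0.597% to 0.788% with Stattic, 0.658% to 0.707% with Kira8+Stattic and 0.609% to 0.756% in None. The mitochondrial genes made up 3.93% to 4.45%, 3.07% to 4.74%, 3.27% to 4.06% and 3.16% to 4.34% in the same order. There were therefore 7.50 and 8.02 mitochondrial counts per nuclear count in the Kira8 libraries, against 5.20 to 6.52 in None, and Kira8 lay outside the range of every other group. With Stattic the ratio was 5.14 and 6.02, and with Kira8+Stattic 4.62 to 6.16, both overlapping None. In the libraries left out it was 1524 in Kira8 replicate 2 and 18.4 in Stattic replicate 2.

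Within the nuclear set, complex V took the largest share of counts in each of the 10 libraries. Its share was 43.2% to 43.5% with Kira8, 42.7% to 45.8% with Stattic, 43.3% to 43.7% with Kira8+Stattic and 46.1% to 49.3% in None, below None in all 7 treated libraries. Complex IV took 14.98% to 15.1%, 16.6% to 17.0%, 16.8% to 17.9% and 12.8% to 14.4% in the same order, above None in all 7. Complex II took 4.18% to 4.23% with Stattic and 4.01% to 4.79% with Kira8+Stattic, against 5.81% to 6.14% with Kira8 and 5.87% to 6.19% in None, so that the 5 libraries with Stattic were below the other 5. These shares compare genes within a library and do not depend on scaling between libraries. A lower share need not be a lower level. The summed level of complex V was 2179 and 2325 CPM with Kira8 and 2828 and 3621 CPM with Stattic. It was 3013 to 3302 CPM with Kira8+Stattic and 2887 to 3152 CPM in None.

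With Kira8 few subunit genes were called, and 4 of the 7 nuclear genes that fell belong to ATP synthase. Against None, 7 of 82 nuclear genes fell and 1 rose, where 19.3% of all genes tested were called, 9.7% higher and 9.59% lower. The median nuclear change was -0.28 on the log2 scale, against 0.00 over all genes, and 67 of 82 changes were below 0. Kira8 and None libraries did not overlap for 42 genes that were lower and 8 that were higher, where 22.4% and 25.3% of all genes tested were lower or higher without overlap. Leaving out either Kira8 library left 2 nuclear genes lower and none higher, while the share of all genes called also dropped, to 7.7% without replicate 1 and 7.03% without replicate 3.

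The gene furthest down among those above 5 CPM was Atp5g1, at chr11:96068852-96075670 on the minus strand (mm10), 1 of 3 nuclear genes for subunit c, whose copies form the rotor ring of ATP synthase. The 3 genes encode the same mature protein behind different import sequences. Atp5g1 had 15.4 and 14.6 CPM in the Kira8 libraries, 45.8 and 47.8 CPM with Stattic, 45.1, 48.0 and 60.8 CPM with Kira8+Stattic, and 37.2, 32.4 and 32.1 CPM in None. Kira8 alone was below every other library and both Stattic groups were above None. Kira8 over None gave a log2 change of -1.18 ± 0.17 (SE; adjusted p = 0.000752), and this call was kept in each fit that left out 1 library. Stattic over None gave 0.46 ± 0.16 (adjusted p = 0.0404), Kira8+Stattic over None 0.60 ± 0.15 (adjusted p = 0.00643) and Kira8+Stattic over Kira8 1.77 ± 0.18 (adjusted p = 4.05e-05). The difference between the Kira8 change with Stattic and that without it was itself called, at 1.31 ± 0.24 (adjusted p = 0.00804), and was lost when Kira8 replicate 3 was left out.

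Each of the other genes of the ring shared some of these calls. Atp5g2 had 99.7 and 96.7 CPM with Kira8, 202 and 132 CPM with Stattic, 148, 135 and 156 CPM with Kira8+Stattic, and 125, 82.7 and 99.0 CPM in None. It was called higher with Stattic (log2 change 0.71 ± 0.21, adjusted p = 0.0169) and with Kira8+Stattic (0.52 ± 0.19, adjusted p = 0.0416), while Kira8 lay inside the range of None (-0.06 ± 0.21, adjusted p = 0.902). Atp5g3 had 108 and 109 CPM with Kira8, 143 and 108 CPM with Stattic, 145, 145 and 159 CPM with Kira8+Stattic, and 173, 162 and 149 CPM in None. It fell with Kira8 (-0.58 ± 0.16, adjusted p = 0.0245), a call lost without either Kira8 library. Within the messengers for subunit c, Atp5g1 therefore made up 6.91% and 6.64% with Kira8, 11.7% and 16.6% with Stattic, 13.3% to 16.1% with Kira8+Stattic, and 11.1% to 11.7% in None. Atp5g3 made up 48.3% and 49.5%, 36.6% and 37.5%, 42.3% to 44.2% and 51.7% to 58.5% in the same order, below None in all 7 treated libraries. These ratios were chosen after the values were seen and carry no test.

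**Figure D1:**
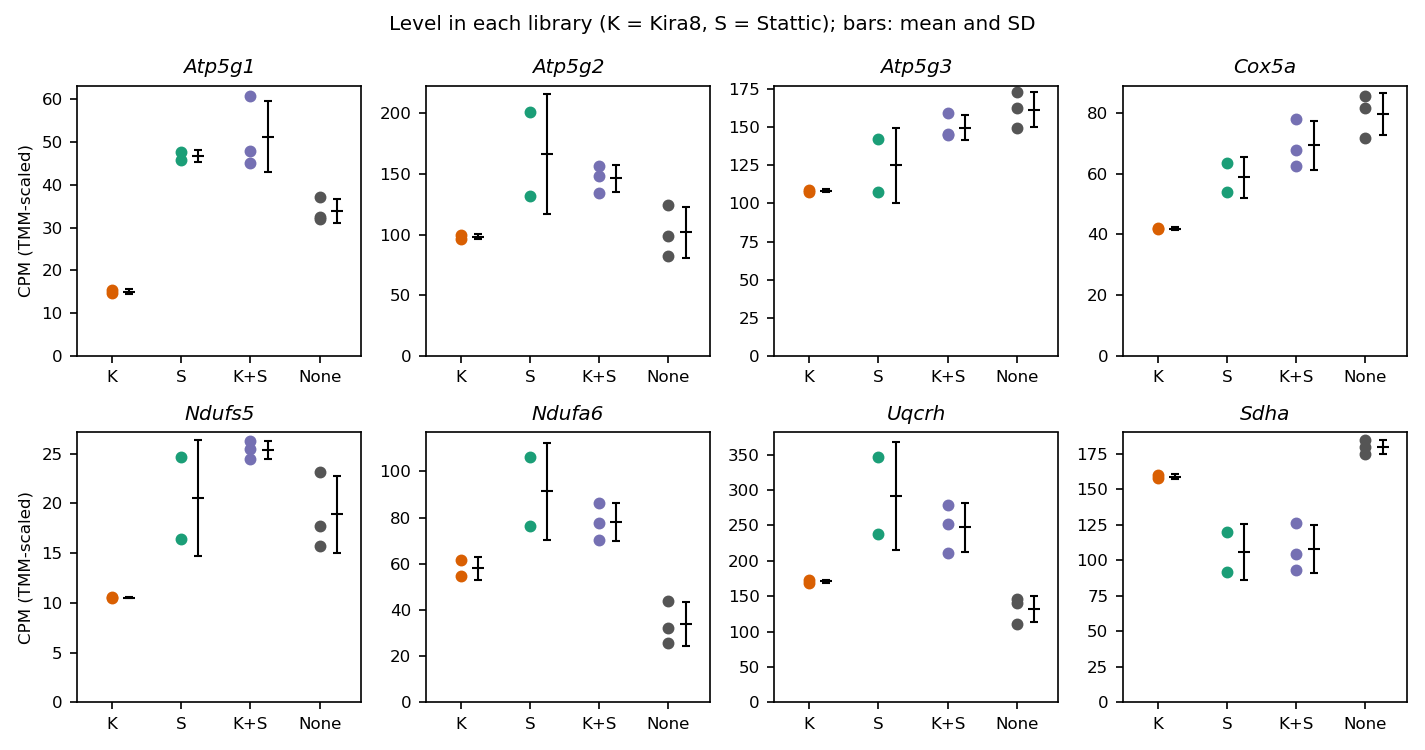
Level in CPM after TMM scaling (y axes, starting at 0) of 8 nuclear genes in each of the 10 libraries, by group (x axes; K, Kira8; S, Stattic; K+S, Kira8+Stattic; None), with the mean and SD as bars. Atp5g1, Cox5a and Ndufs5 are lowest with Kira8 alone, and Ndufa6 and Uqcrh are above None in all 7 treated libraries. Sdha is below None in all 7 and lowest in the 5 libraries with Stattic.

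Cox5a, an accessory subunit of complex IV that surrounds its mitochondrially encoded core, had 42.2 and 41.7 CPM with Kira8, 63.5 and 54.1 CPM with Stattic, 62.4, 67.7 and 78.2 CPM with Kira8+Stattic, and 85.5, 81.5 and 71.9 CPM in None. It fell with Kira8 (log2 change -0.93 ± 0.16, adjusted p = 0.00196), and the call held without each of the 10 libraries in turn. With Stattic it was called lower by a narrow margin (-0.44 ± 0.16, adjusted p = 0.0435), a call kept only without Kira8+Stattic replicates 1 or 3 or None replicate 3. The interaction was 1.16 ± 0.22 (adjusted p = 0.00977) and was lost without either Kira8 library or Stattic replicate 3. Cox5b, which sits beside it in the complex, moved otherwise, and was called higher with Stattic (0.55 ± 0.19, adjusted p = 0.0377) and not with Kira8 (-0.16 ± 0.19, adjusted p = 0.623). Counts of Cox5a per count of Cox5b were 1.06 and 1.09 with Kira8, 0.860 and 1.01 with Stattic, 1.02 to 1.10 with Kira8+Stattic, and 1.67 to 2.15 in None, so that all 7 treated libraries lay below None.

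Ndufs5, an accessory subunit on the intermembrane face of complex I, had 10.6 and 10.5 CPM with Kira8, 24.6 and 16.4 CPM with Stattic, 26.3, 24.4 and 25.5 CPM with Kira8+Stattic, and 23.2, 17.8 and 15.7 CPM in None. Kira8 stood below all others. It fell with Kira8 (log2 change -0.84 ± 0.22, adjusted p = 0.0184), a call lost without either Kira8 library, and its interaction was 1.15 ± 0.31 (adjusted p = 0.0394), kept only without Stattic replicate 1 or None replicate 3. The other genes that fell with Kira8 encode the catalytic F1 head of ATP synthase, Atp5a1 (alpha; -0.57 ± 0.16, adjusted p = 0.0236) and Atp5b (beta; -0.47 ± 0.15, adjusted p = 0.045), the nuclear members of the highest level, and Cox6a2, the muscle form of a complex IV subunit, at 0.228 and 0.150 CPM with Kira8 and 0.964 to 1.03 CPM in None. The Atp5a1 call was lost without either Kira8 library, and the Atp5b call was kept only without Kira8+Stattic replicate 1 or None replicate 1. Atp5b had 735 and 701 CPM with Kira8, 1005 and 883 CPM with Stattic, 848, 854 and 957 CPM with Kira8+Stattic, and 963, 1037 and 989 CPM in None.

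With Stattic the nuclear subunit genes were more often higher than lower, and this was seen mostly among the small accessory subunits. Against None, 28 of 82 nuclear genes rose and 5 fell with Stattic, where 39% of all genes tested were called, 20.1% higher and 18.9% lower. With Kira8+Stattic 34 rose and 4 fell, where 40.8% of all genes were called, 20.8% higher and 20% lower. The 2 comparisons share the None libraries. The median nuclear change was 0.44 with Stattic and 0.48 with Kira8+Stattic, against 0.08 and 0.09 over all genes tested. Stattic and None did not overlap for 28 higher and 9 lower nuclear genes, where the shares of all genes were 30.8% and 27.5%, and Kira8+Stattic and None for 43 higher and 11 lower, where they were 28.7% and 25.4%.

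These counts rested on single libraries and on the scaling. Stattic replicate 1 was above Stattic replicate 3 in 80 of 82 nuclear genes, and without replicate 1 the split was 3 higher and 8 lower, while without replicate 3 it was 38 higher and 0 lower. Scaled by library size alone, which moved the median of all genes by over 0.1 to -0.08 with Stattic and -0.06 with Kira8+Stattic, the splits were 7 higher and 9 lower with Stattic and 13 higher and 8 lower with Kira8+Stattic. The median nuclear change was then 0.26 and 0.32. Leaving out single libraries gave 16 to 42 higher and 2 to 5 lower with Kira8+Stattic.

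In the fit of all 12 libraries, edgeR called none of the 95 genes in any of the 6 comparisons. At an unadjusted p under 0.05 there were 14 for Kira8, 6 for Stattic, 3 for Kira8+Stattic over None, 22 for Kira8+Stattic over Kira8, 2 for Kira8+Stattic over Stattic and 14 for the interaction. With limma's voom and library quality weights on the same 12 libraries, 7, 21, 44, 57, 0 and 3 genes were called in the same order, where voom called 22.3%, 37.1%, 47.4%, 44.2%, 0% and 7.36% of all genes. The share of all genes called with 12 libraries was 0% for Kira8, 0.31% for Stattic (0.105% higher and 0.205% lower) and 0.272% for Kira8+Stattic (0.133% higher and 0.138% lower) against None. It was 0% in the other 3 comparisons.

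**Figure D2:**
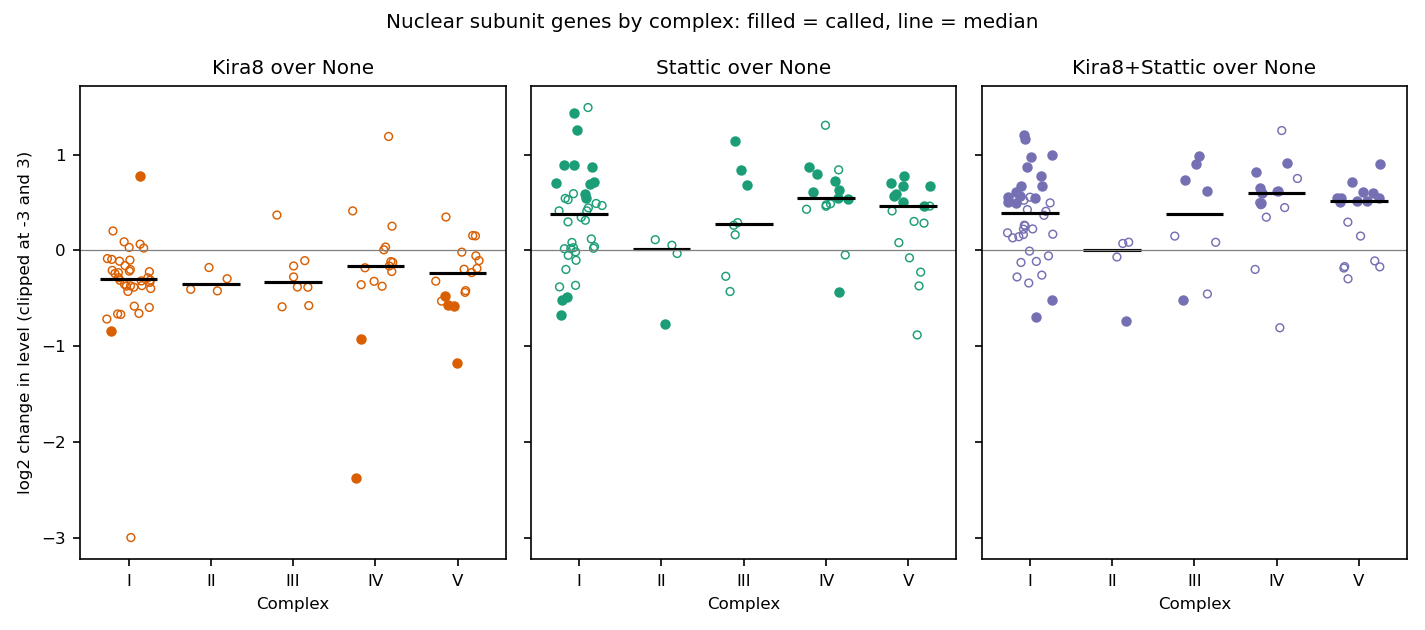
Log2 change against None (y axis) of the 82 tested nuclear genes, by complex (x axis), for Kira8, Stattic and Kira8+Stattic. Filled points are called at an adjusted p under 0.05, lines are medians, and 1 value below -3 (Ndufa4l2, at 0 counts in Kira8) is drawn at -3. Most filled points lie below 0 with Kira8 and above 0 in the other panels. Complex II, with 4 genes, has 1 filled point in each of those other panels, below 0.

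By complex, the genes that rose with Stattic were 10 of 38 in complex I, 3 of 8 in complex III, 7 of 15 in complex IV and 8 of 17 in complex V, while none of the 4 in complex II rose. With Kira8+Stattic 14 rose in complex I, 4 in complex III, 6 in complex IV, 10 in complex V and 0 in complex II. Beside the 20.1% and 20.8% of all genes tested that were called higher, complex I stood at 26.3% with Stattic and 36.8% with Kira8+Stattic, and complex V at 47.1% and 58.8%. Within complex I, none of the 7 nuclear core subunits, which carry the electron path and are shared with bacteria, rose with Stattic and 2 fell, with a median of -0.36, while of the 31 accessory subunits 10 rose and 1 fell, with a median of 0.47. With Kira8+Stattic the core had 0 higher and 1 lower (median -0.26) and the accessory set 14 higher and 1 lower (median 0.50). With Stattic the 2 of 7 core subunits that fell stand beside 18.9% of all genes called lower, and the 32.3% of accessory subunits that rose beside 20.1% called higher. The classes were not tested against each other. In complex III the core and Rieske subunits had 0 of 3 higher and the accessory subunits 3 of 5 with Stattic, and 0 and 4 with Kira8+Stattic.

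Ndufa6, a small accessory subunit of the LYR family on the matrix arm of complex I (chr15:82350140-82354322, minus strand), had the largest called rise. It had 61.7 and 54.6 CPM with Kira8, 106 and 76.5 CPM with Stattic, 70.3, 77.5 and 86.4 CPM with Kira8+Stattic, and 44.0, 25.5 and 32.2 CPM in None. All 7 treated libraries were above None. The log2 changes were 0.78 ± 0.22 with Kira8 (adjusted p = 0.0276), 1.43 ± 0.22 with Stattic (adjusted p = 0.000345) and 1.20 ± 0.20 with Kira8+Stattic (adjusted p = 0.000533). The Stattic and Kira8+Stattic calls held without each library in turn and with library size alone, while the Kira8 call was lost without either Kira8 library and without None replicates 2 or 3.

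Uqcrh, the hinge protein of complex III that helps cytochrome c dock (chr4:116066965-116075071, minus strand), had 173 and 169 CPM with Kira8, 346 and 238 CPM with Stattic, 211, 253 and 279 CPM with Kira8+Stattic, and 140, 111 and 146 CPM in None. Each of the 7 treated libraries was above None. It rose with Stattic (log2 change 1.14 ± 0.20, adjusted p = 0.000687) and Kira8+Stattic (0.90 ± 0.18, adjusted p = 0.00156), and the value for Kira8 was 0.37 ± 0.20 (adjusted p = 0.222). Ndufv3, a subunit bound at the NADH site of complex I, rose by 1.25 ± 0.30 with Stattic (adjusted p = 0.00599) and by 1.17 ± 0.28 with Kira8+Stattic (adjusted p = 0.005). Its 3 None libraries spread from 17.8 to 42.2 CPM, against 51.9 and 83.9 CPM with Stattic and 56.4 to 69.1 CPM with Kira8+Stattic, and the Stattic call was lost without Stattic replicate 1.

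Cox7a2l, which joins complexes III and IV into supercomplexes, had 185 and 162 CPM with Stattic, 171, 156 and 212 CPM with Kira8+Stattic, and 124, 76.1 and 85.2 CPM in None, and rose by 0.87 ± 0.21 (adjusted p = 0.00611) and 0.92 ± 0.19 (adjusted p = 0.00224). Ndufb11, a membrane arm subunit of complex I, rose by 0.89 ± 0.20 with Stattic (adjusted p = 0.00381), and Ndufa1, which is needed to build that arm, by 0.88 ± 0.25 (adjusted p = 0.016). Both calls, like those of Uqcr10 and Atp5l with Stattic, were lost without Stattic replicate 1, and those of Ndufa1 and Uqcr10 also without None replicate 2. Uqcr10, a small subunit near the Rieske protein, rose by 0.84 ± 0.24 (adjusted p = 0.0171) and Cox8a, the general form of the smallest complex IV subunit, by 0.80 ± 0.20 (adjusted p = 0.00734). In ATP synthase the epsilon subunit of the central stalk, Atp5e, rose by 0.90 ± 0.20 with Kira8+Stattic (adjusted p = 0.00387) and Atp5l, subunit g of the membrane part, by 0.68 ± 0.15 with Stattic (adjusted p = 0.00388).

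Fewer nuclear genes fell, namely Sdha, Ndufs1, Ndufab1, Ndufs7 and Cox5a with Stattic and Sdha, Ndufs1, Ndufab1 and Uqcrc1 with Kira8+Stattic. Sdha, the flavoprotein of complex II that oxidises succinate (chr13:74322254-74350280, minus strand), had 158 and 160 CPM with Kira8, 120 and 92.0 CPM with Stattic, 126, 93.1 and 104 CPM with Kira8+Stattic, and 180, 185 and 175 CPM in None. The 5 libraries with Stattic were below all others. It fell by 0.76 ± 0.17 on the log2 scale with Stattic (adjusted p = 0.00426) and by 0.74 ± 0.15 with Kira8+Stattic (adjusted p = 0.00214), the second in each fit that left out 1 library and the first in all but that without Stattic replicate 3. Ndufs1, the large iron-sulfur subunit of complex I, had 73.4 and 64.9 CPM with Stattic and 59.0, 59.0 and 61.5 CPM with Kira8+Stattic, against 83.4, 109 and 99.5 CPM in None, with log2 changes of -0.49 ± 0.15 (adjusted p = 0.0231) and -0.70 ± 0.14 (adjusted p = 0.00138). Ndufab1, the mitochondrial acyl carrier protein, which is also needed for lipoic acid synthesis, gave -0.67 ± 0.20 (adjusted p = 0.0184) and -0.52 ± 0.17 (adjusted p = 0.0313), the first lost without Stattic replicate 3 and the second without replicates 2 or 3 of Kira8+Stattic or of None. The Ndufs1 call with Stattic was lost without Stattic replicate 3 or None replicates 2 or 3. Ndufs7, which carries the last iron-sulfur cluster before ubiquinone, was called lower with Stattic (-0.51 ± 0.18, adjusted p = 0.0387), and Uqcrc1, a core protein of complex III, with Kira8+Stattic (-0.51 ± 0.18, adjusted p = 0.0427), calls lost without either Kira8 library, Kira8+Stattic replicates 2 or 3, or None replicates 1 or 3, and for Ndufs7 also without Stattic replicate 3.

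Ratios within a library need no scaling between libraries. Counts of Uqcrh per count of Uqcrc1 were 1.30 and 1.32 with Kira8, 2.38 and 2.65 with Stattic, 1.72 to 2.82 with Kira8+Stattic, and 0.773 to 0.925 in None. Counts of Ndufa6 per count of Ndufa9, a complex I subunit whose log2 change was -0.01 ± 0.20 with Stattic, were 0.944 and 1.06 with Kira8, 1.15 and 1.35 with Stattic, 0.916 to 1.22 with Kira8+Stattic, and 0.367 to 0.573 in None. In both pairs all 7 treated libraries were above None, and the pairs were chosen after the values were seen.

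The genes that rose with Stattic were mostly short. Of 51 nuclear genes with fewer than 500 coding nucleotides, 26 rose and 2 fell with Stattic (median 0.55), against 1 and 1 of 20 genes from 500 to 1000 (median 0.23), and 1 and 2 of 11 genes at 1000 and over (median -0.20). Among all protein-coding genes tested, those under 500 nucleotides had 361 of 1383 higher and 175 lower (median 0.29), and those of 1000 and over had 1856 of 9860 higher and 2689 lower (median -0.19). Across the 82 genes the Spearman correlation of length with the change was -0.55 with Stattic, -0.54 with Kira8+Stattic and -0.01 with Kira8, against -0.07, -0.06 and 0.14 across 14757 protein-coding genes. Genes are not independent replicates, all share the same libraries, and the part that length has in the rise was not tested.

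**Figure D3:**
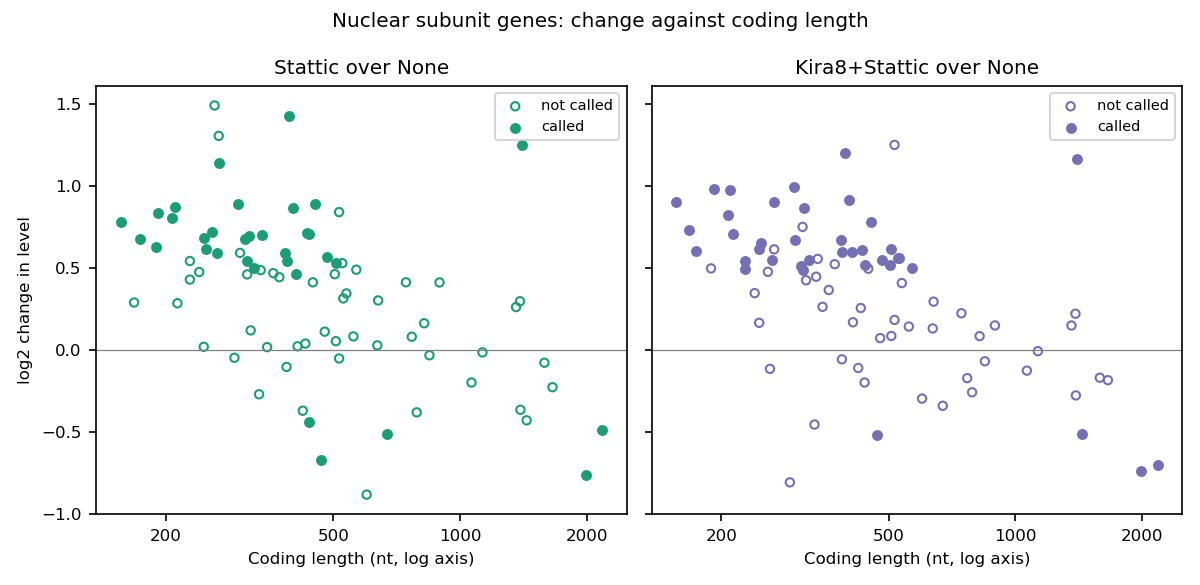
Log2 change against None (y axis) and coding length (x axis, log scale, nucleotides) of the 82 tested nuclear genes with Stattic and with Kira8+Stattic. Filled points are called, and of 28 called higher with Stattic 26 have fewer than 500 coding nucleotides.

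Kira8+Stattic over Kira8 gave the largest number of calls. Of 82 nuclear genes 43 rose and 2 fell, where 30.7% of all genes tested were called, 14.7% higher and 16% lower, and the median was 0.62 against 0.12 over all genes. The groups did not overlap for 70 higher and 5 lower nuclear genes, where the shares of all genes were 32.9% and 29.8%. Leaving out replicate 3 of Kira8 left 6 higher genes, and leaving out its replicate 1 left 16. It was 30 with library size alone. After Atp5g1 the largest rises above 5 CPM were in Uqcr10 (1.36 ± 0.26, adjusted p = 0.0021) and Uqcr11 (1.32 ± 0.27, adjusted p = 0.00354, lost without Kira8 replicate 3), both small subunits of complex III. Uqcr11 had 18.2, 20.4 and 17.5 CPM with Kira8+Stattic, against 8.76 and 6.21 CPM with Kira8. Sdha and Ndufs1 were the genes that fell, and the Ndufs1 call was lost without any 1 of the 5 libraries compared and the Sdha call without any but Kira8+Stattic replicate 1.

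Kira8+Stattic over Stattic called none of the 95 genes with edgeR, with DESeq2 or, on 12 libraries, with voom, and none had an unadjusted p under 0.05 in the edgeR fit of 10 libraries, where 0.0141% of all genes tested were called, 0.00942% higher and 0.00471% lower, and 874 had such an unadjusted p. Kira8+Stattic and Stattic did not overlap for 3 higher and 4 lower nuclear genes, where the shares of all genes were 9.77% and 9.14%. This does not show that the groups are alike, since 2 Stattic libraries that differ from each other stand on one side. The interaction called 4 nuclear genes and no mitochondrial one, where 8.52% of all genes tested were called, 4.55% higher and 3.97% lower, and these were Atp5g1, Cox5a, Ndufs5 and Atp5g3 (0.84 ± 0.22, adjusted p = 0.0396). The Atp5g3 call was kept only without Stattic replicate 1 or None replicates 1 or 3. The interaction is the change of Kira8+Stattic over Stattic minus that of Kira8 over None, so a positive value means that Kira8 went with a higher level in the presence of Stattic than the change without it would give.

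Several subunits have a general and a tissue-restricted form, and in these cells the general forms carried nearly all counts. Cox4i1 had 178 and 166 CPM with Kira8, 269 and 227 CPM with Stattic, 251, 245 and 293 CPM with Kira8+Stattic, and 188, 161 and 165 CPM in None, while Cox4i2, the form known from lung and low oxygen, was at or under 1.14 CPM in each. Cox4i1 rose with Stattic (0.53 ± 0.15, adjusted p = 0.0166) and with Kira8+Stattic (0.62 ± 0.14, adjusted p = 0.00371). The muscle forms Cox6a2 and Cox7a1 reached 1.03 and 1.80 CPM, and Cox6b2, known from testis, 3.13 CPM. Cox6a1, Cox6b1, Cox7a2 and Cox8a lay between 44.5 and 128 CPM. Cox8c was at 0 in all 12 libraries, which allows up to 0.0349 to 0.323 CPM per library at a limit of 3 counts. Cox7b2 had 45.6 CPM in Stattic replicate 2 and 0 in the 11 others, and the same library had 1050 CPM of Ndufs8 and 1399 CPM of Atp5d, against 27.8 to 49.3 CPM and 109 to 201 CPM in the 10.

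The mitochondrial genes did not move as a group. Their median change was 0.00 with Kira8, 0.20 with Stattic and -0.02 with Kira8+Stattic, and none rose. mt-Nd1, mt-Nd5 and mt-Nd6 fell with Stattic, with Kira8+Stattic against None and with Kira8+Stattic against Kira8. These are 23.1% of the 13 genes, near the 18.9%, 20% and 16% of all genes tested that were called lower in these comparisons. They belong to the proton-pumping membrane arm of complex I, as do mt-Nd2, mt-Nd3, mt-Nd4 and mt-Nd4l, which were not called in these comparisons. mt-Nd3, another complex I subunit, was called lower with Kira8 (log2 change -0.59 ± 0.19, adjusted p = 0.0488), at 157 and 130 CPM with Kira8 and 240, 173 and 235 CPM in None. The call was lost without either Kira8 library, Kira8+Stattic replicates 2 or 3, or None replicates 1 or 3. With all 12 libraries its change was 1.87 in edgeR and stayed below 0 with voom and quality weights. The single gene of complex III (mt-Cytb), the 3 of complex IV and the 2 of complex V were not called in any comparison.

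**Figure D4:**
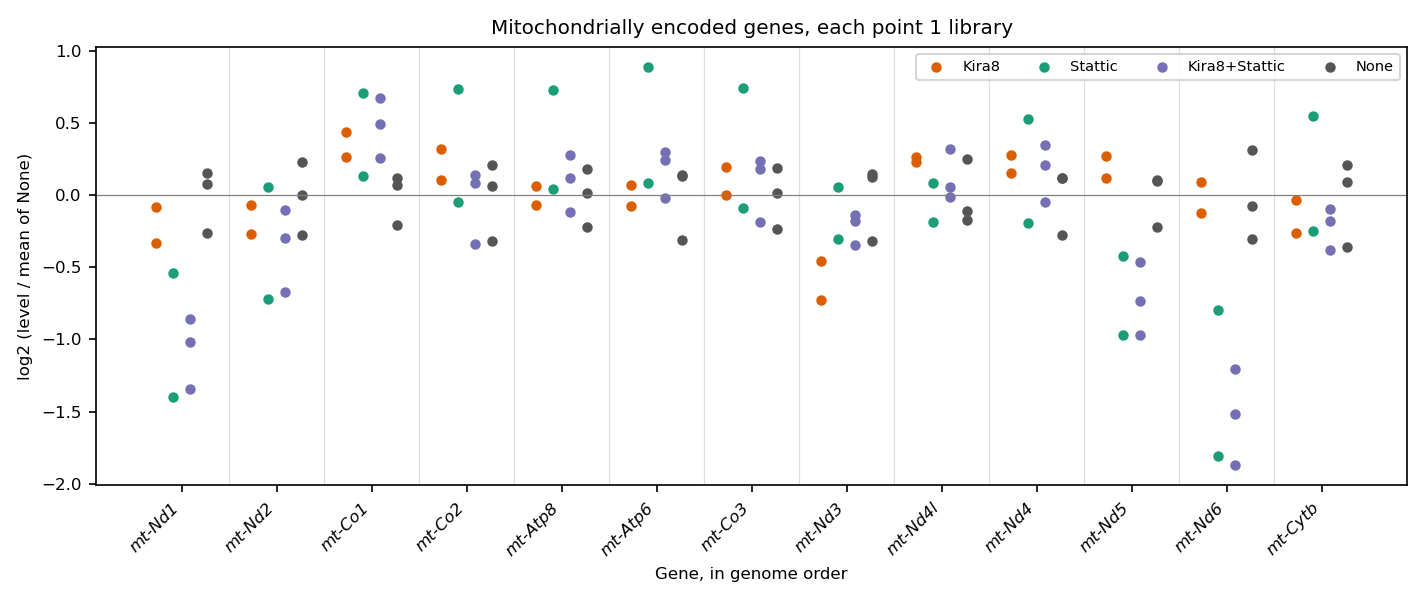
Level of each mitochondrially encoded gene over its mean in None (y axis, log2) in the 10 libraries, with genes on the x axis in their order on mitochondrial DNA. With Stattic and Kira8+Stattic mt-Nd1, mt-Nd5 and mt-Nd6 lie below None in all 5 libraries. mt-Co1 lies above None in every treated library, those with Kira8 alone included.

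mt-Nd6, the only messenger read from the light strand (M:13552-14070), had 911 and 788 CPM with Kira8, 494 and 244 CPM with Stattic, 234, 372 and 300 CPM with Kira8+Stattic, and 1065, 693 and 813 CPM in None. The 5 libraries with Stattic were below all others. The log2 changes were -1.21 ± 0.30 with Stattic (adjusted p = 0.00724), -1.50 ± 0.27 with Kira8+Stattic (adjusted p = 0.000727) and -0.01 ± 0.29 with Kira8 (adjusted p = 0.996). In Kira8 it lay inside the range of None. mt-Nd1, the first messenger after the ribosomal RNAs (M:2751-3707), had 3651 and 3067 CPM with Kira8, 2655 and 1462 CPM with Stattic, 1520, 2133 and 1903 CPM with Kira8+Stattic, and 4073, 3209 and 4295 CPM in None. It fell by 0.91 ± 0.26 (adjusted p = 0.0151) and 1.06 ± 0.23 (adjusted p = 0.00272) on the log2 scale. The 5 libraries with Stattic were again below the other 5. mt-Nd5, late on the heavy strand transcript (M:11742-13565), had 3276 and 2944 CPM with Kira8, 2021 and 1386 CPM with Stattic, 1389, 1968 and 1634 CPM with Kira8+Stattic, and 2907, 2324 and 2912 CPM in None. It fell by 0.67 ± 0.22 (adjusted p = 0.0266) and 0.71 ± 0.19 (adjusted p = 0.0103). All 3 Stattic calls were lost without Stattic replicate 3, and mt-Nd5 also without None replicate 3, while the Kira8+Stattic calls against None held without each library. Over Kira8, the mt-Nd1 call was lost without either Kira8 library or Kira8+Stattic replicates 1 or 3, and the mt-Nd5 call without Kira8 replicate 1. In the edgeR fit of all 12 libraries without a replicate block, the changes with Stattic were above 0 and not called. They were 0.41 for mt-Nd1, 2.10 for mt-Nd5 and 1.43 for mt-Nd6. On the same libraries these changes stayed below 0 with a replicate block in edgeR and with voom and quality weights.

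mt-Nd1 and mt-Nd5 share a long transcript with messengers that were not called, while mt-Nd6 is read from the other strand. Counts were set against a neighbouring messenger of the same library, whichever its strand. Counts of mt-Nd5 per count of mt-Nd4, the messenger before it, were 1.02 and 0.996 with Kira8, 0.526 and 0.595 with Stattic, 0.540, 0.581 and 0.531 with Kira8+Stattic, and 1.01, 1.06 and 1.01 in None. Counts of mt-Nd6 per count of mt-Cytb, which lies next to it on the opposite strand, were 0.274 and 0.279, 0.0995 and 0.0854, 0.0897 to 0.117, and 0.224 to 0.272 in the same order. Counts of mt-Nd1 per count of mt-Nd2 were 2.07 and 2.00, 1.38 and 1.30, 1.24 to 1.31, and 1.87 to 2.31. In each ratio the 5 libraries with Stattic were below the other 5 without overlap, and Stattic replicates 1 and 3 lay close together. In the libraries left out mt-Nd5 over mt-Nd4 was 0.907 in Kira8 replicate 2 and 1.41 in Stattic replicate 2, mt-Nd6 over mt-Cytb was 0.516 and 0.610, and mt-Nd1 over mt-Nd2 was 1.88 and 1.27. Only the last of these put Stattic replicate 2 below None. The ratios were chosen after the values were seen and carry no test, and the sources used here do not give whether counting used strand. Reads of mt-Nd6 and of heavy strand RNA across it cannot be told apart. The annotated spans of mt-Nd5 (M:11742-13565) and mt-Nd6 (M:13552-14070) also overlap, on opposite strands.

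**Figure D5:**
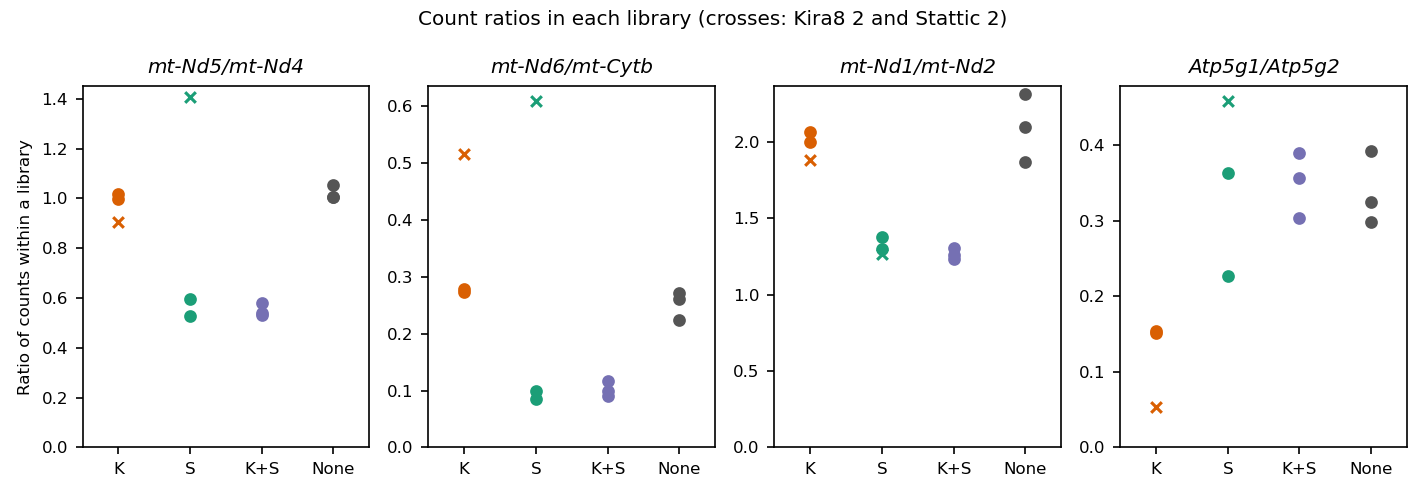
Ratio of counts of 2 genes within a library (y axes, starting at 0) by group (x axes), each point 1 of 12 libraries, with Kira8 replicate 2 and Stattic replicate 2 as crosses. In the 10 other libraries the 3 mitochondrial ratios are lower with Stattic and Kira8+Stattic than with Kira8 or None, and Atp5g1 over Atp5g2 is lowest with Kira8.

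mt-Co1, the catalytic subunit of complex IV, took 39.9% and 40.1% of mitochondrial counts with Kira8, 40.5% and 43.7% with Stattic, 45.7% to 47.0% with Kira8+Stattic, and 33.8% to 35.7% in None, above None in all 7 treated libraries. Its log2 change of level was 0.35 ± 0.21 with Kira8 (adjusted p = 0.281), 0.45 ± 0.21 with Stattic (adjusted p = 0.112) and 0.48 ± 0.19 with Kira8+Stattic (adjusted p = 0.0614). mt-Atp6, the proton channel subunit of ATP synthase, took 6.77% and 6.96%, 10.1% and 9.25%, 7.93% to 8.45%, and 7.28% to 7.76% in the same order. mt-Atp8 and mt-Atp6 share 43 bases and mt-Nd4l and mt-Nd4 share 7, so that how reads there were divided cannot be known. The bases at these joints, read from the transcript sequences of GENCODE M21 (mm10), are shown with the shared part in capitals and 15 bases on each side. The first runs over M:7912-7984 and the second over M:10152-10188, and in both the capitals open with the start codon of the downstream gene.

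mt-Atp8 into mt-Atp6: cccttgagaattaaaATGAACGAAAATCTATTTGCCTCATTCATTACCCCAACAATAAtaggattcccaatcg
mt-Nd4l into mt-Nd4: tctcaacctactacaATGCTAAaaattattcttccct

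Nuclear subunit genes are known to share promoter elements, so the promoters of genes described above were searched for those of NRF1, GABP, YY1, the estrogen-related receptors (ERR), MYC and ATF4. RefSeq windows of GRCm38.p6 from 250 bases before to 50 after the start were found for 67 of 85 nuclear symbols. On either strand, the NRF1 motif was in 25.4% of the members against 5.19% of 27025 genes, the GABP motif CCGGAAG in 23.9% against 9.93%, and the YY1 motif AAGATGGC in 13.4% against 3.19%. The ERR motif TCAAGGTCA was in 2.99% against 0.466%, the MYC motif CACGTG in 7.46% against 8.09%, and the ATF4 motif TGATGNAAT in 0% against 1.08%. Among members with a window, 29 were called higher with Kira8+Stattic. Of these, 4 held the NRF1 motif, 9 the GABP, 5 the YY1, 2 the MYC and 0 the ERR motif. Of the 38 others, 13, 7, 4, 3 and 2 held them in the same order. A match is a description of letters, not a binding site.

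The promoters of the 3 subunit c genes are shown because these genes moved apart, and those of Ndufa6 and Uqcrh because their calls with Stattic and Kira8+Stattic held without each library in turn. Each is read 5′ to 3′ on the minus strand in GRCm38.p6, with motif matches in capitals. Atp5g1 (chr11:96075582-96075881) holds only the MYC motif, Atp5g2 (chr15:102670998-102671297) the NRF1 motif, which reads the same on both strands, and Atp5g3 (chr2:73911277-73911576) the MYC, ERR and NRF1 motifs in that order. Ndufa6 (chr15:82354242-82354541) holds the NRF1 motif past its start and Uqcrh (chr4:116075021-116075320) the GABP motif just before it.

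Atp5g1: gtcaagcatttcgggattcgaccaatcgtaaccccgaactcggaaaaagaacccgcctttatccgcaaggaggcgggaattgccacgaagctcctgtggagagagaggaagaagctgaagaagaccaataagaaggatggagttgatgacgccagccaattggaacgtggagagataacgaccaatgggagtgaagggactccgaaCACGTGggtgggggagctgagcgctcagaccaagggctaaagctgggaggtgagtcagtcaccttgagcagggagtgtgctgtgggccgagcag
Atp5g2: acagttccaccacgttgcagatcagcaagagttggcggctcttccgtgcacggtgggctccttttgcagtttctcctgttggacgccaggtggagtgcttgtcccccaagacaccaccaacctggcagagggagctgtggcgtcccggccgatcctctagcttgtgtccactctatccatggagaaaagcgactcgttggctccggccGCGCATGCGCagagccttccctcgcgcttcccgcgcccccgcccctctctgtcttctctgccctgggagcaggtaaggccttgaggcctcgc
Atp5g3: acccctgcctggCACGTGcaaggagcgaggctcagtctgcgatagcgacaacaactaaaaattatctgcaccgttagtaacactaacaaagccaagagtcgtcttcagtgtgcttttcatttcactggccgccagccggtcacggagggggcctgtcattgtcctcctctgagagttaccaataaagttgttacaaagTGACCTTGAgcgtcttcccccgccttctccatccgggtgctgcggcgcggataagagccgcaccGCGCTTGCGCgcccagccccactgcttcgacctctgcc
Ndufa6: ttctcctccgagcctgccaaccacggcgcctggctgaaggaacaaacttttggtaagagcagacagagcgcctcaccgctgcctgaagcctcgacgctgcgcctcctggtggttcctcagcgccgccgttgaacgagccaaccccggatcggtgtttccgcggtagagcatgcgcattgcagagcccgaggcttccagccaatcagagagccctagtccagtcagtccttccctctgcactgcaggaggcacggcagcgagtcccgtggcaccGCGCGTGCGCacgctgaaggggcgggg
Uqcrh: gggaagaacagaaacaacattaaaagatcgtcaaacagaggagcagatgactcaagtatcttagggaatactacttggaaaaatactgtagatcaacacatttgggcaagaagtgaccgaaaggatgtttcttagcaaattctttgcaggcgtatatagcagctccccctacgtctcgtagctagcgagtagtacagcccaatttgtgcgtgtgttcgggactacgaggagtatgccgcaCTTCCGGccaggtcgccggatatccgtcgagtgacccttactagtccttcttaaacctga

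The RNAs for these factors moved in several directions. Myc had 193 and 163 CPM with Kira8, 175 and 180 CPM with Stattic, 130, 118 and 142 CPM with Kira8+Stattic, and 566, 540 and 382 CPM in None, and fell in each, by 1.48, 1.48 and 1.93 on the log2 scale (adjusted p = 0.000438, 0.000123 and 5.47e-06). Pprc1, a coactivator of NRF1 known to be induced by growth signals, gave -0.86 with Kira8, -3.15 with Stattic and -2.89 with Kira8+Stattic (adjusted p = 0.00652, 1.43e-06 and 5.06e-07). Esrra gave -0.79, -1.71 and -1.28, all called, and Nrf1 -0.65 and -0.52 with Stattic and Kira8+Stattic, both called. Yy1 rose by 0.76 and 0.63 in the same groups (adjusted p = 0.00118 and 0.0019). Gabpa was not called, at 0.35 and 0.36.

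Genes that build and feed the chain were called lower more often than higher in most lists. The counts below stand beside 9.7% of all genes tested called higher and 9.59% lower with Kira8, 20.1% and 18.9% with Stattic, and 20.8% and 20% with Kira8+Stattic. Of 17 complex I assembly factors, none rose and 10 fell with Kira8, 0 rose and 8 fell with Stattic, and 1 rose and 8 fell with Kira8+Stattic. Ndufaf4 had 19.4 and 21.6 CPM with Kira8, 9.71 and 6.61 CPM with Stattic, 8.88, 5.88 and 7.36 CPM with Kira8+Stattic, and 51.6, 61.8 and 49.7 CPM in None. Of 23 complex IV assembly factors 1 rose and 3 fell with Kira8, while 7 rose and 8 fell in each group with Stattic. With Kira8 these are 4.35% higher and 13.0% lower, not far from the shares of all genes. Among these Higd1a, a small protein induced by low oxygen, rose by 1.61 with Stattic and 1.74 with Kira8+Stattic, and Cox15, needed to make heme A, gave -1.30 and -1.34. Of 18 genes of the tricarboxylic acid cycle, none rose and 7, 9 and 9 fell with Kira8, Stattic and Kira8+Stattic, among them Idh3a of the NAD-dependent isocitrate dehydrogenase (-1.41, -1.49 and -1.36, all called). In the electron carriers and ubiquinone synthesis, 2 of 20 rose and 8, 10 and 9 fell. Coq10b, a ubiquinone-binding protein, had 34.98 and 32.7 CPM with Kira8, 306 and 318 CPM with Stattic, 233, 296 and 314 CPM with Kira8+Stattic, and 20.0, 31.0 and 19.7 CPM in None. Cycs, cytochrome c itself, fell with Kira8 (-0.91, adjusted p = 0.00329).

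Among the nuclear genes that transcribe mitochondrial DNA and mature its RNA, more fell than rose. Of 20 genes of transcription and replication of mitochondrial DNA, 3 rose and 6 fell with Kira8, 6 rose and 13 fell with Stattic, and 5 rose and 13 fell with Kira8+Stattic. With Stattic these are 30.0% higher and 65.0% lower, where 20.1% and 18.9% of all genes were called. Polrmt, the mitochondrial RNA polymerase, had 28.8 and 30.0 CPM with Kira8, 5.49 and 5.07 CPM with Stattic, 9.07, 5.94 and 5.82 CPM with Kira8+Stattic, and 36.2, 39.3 and 43.4 CPM in None. The 5 libraries with Stattic were far below the other 5. Its log2 change was -0.43 with Kira8 (adjusted p = 0.177), -2.91 with Stattic (adjusted p = 4.68e-06) and -2.52 with Kira8+Stattic (adjusted p = 2.2e-06). Tefm, its elongation factor, gave -1.40, -3.30 and -2.90, all called, and Tfam, which packs the DNA and starts transcription, -0.51, -0.92 and -0.86, all called. Polg2, an accessory subunit of the DNA polymerase, rose by 1.04, 1.71 and 1.83.

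Of 24 genes of maturation and decay of mitochondrial RNA, 0 rose and 14 fell with Kira8, and 2 rose and 18 fell in each group with Stattic. The share that fell was 58.3% with Kira8 and 75.0% in each group with Stattic, against 9.59%, 18.9% and 20% of all genes. Elac2, which cuts the 3′ ends of transfer RNAs out of the long transcripts, gave -1.41, -2.10 and -2.17 for Kira8, Stattic and Kira8+Stattic, and Lrpprc, which stabilises mitochondrial messengers, -0.83, -1.998 and -1.83, all called. Fastkd5, needed for messengers not flanked by transfer RNAs, gave -0.91, -3.37 and -2.72, all called. Of 78 mitochondrial ribosomal protein genes, 0 rose and 29 fell with Kira8, 6 rose and 25 fell with Stattic, and 4 rose and 28 fell with Kira8+Stattic. The share of these that fell was 37.2%, 32.1% and 35.9%, beside the same shares of all genes. Mrps2, of the small subunit, gave -1.06, -2.41 and -2.29, all called.

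Of 12 regulators of mitochondrial biogenesis, 0 rose and 4 fell with Kira8 and 1 rose and 7 fell in each group with Stattic. Of 26 protein import genes, 0 rose and 15 fell with Kira8, 2 rose and 11 fell with Stattic, and 2 rose and 12 fell with Kira8+Stattic, among them the chaperone Timm9 (-1.29, -2.52 and -2.47, all called). The import genes that fell were 57.7%, 42.3% and 46.2% of the list, against 9.59%, 18.9% and 20% of all genes. Of 10 assembly factors of complexes II and III, 0 rose and 2 fell with Kira8 and 1 rose and 3 fell in each group with Stattic, and of 4 for complex V, 0 were called with Kira8 (edgeR; 2 fell in each group with Stattic). Of 14 genes of the mitochondrial stress response, 4 rose and 3 fell with Kira8, 4 rose and 4 fell with Stattic, and 4 rose and 5 fell with Kira8+Stattic. With Stattic these are 28.6% in either direction, not far from the 20.1% and 18.9% of all genes. Among these were the transcription factor Ddit3 (1.90, 2.81 and 3.01) and its partner in stress signalling Trib3 (2.06, 2.71 and 2.82), which rose in all 3.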

How the data were processed

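Gene counts were deposited by the authors as whole numbers in 1 table for 12 libraries, per the file header. The genome build was mm10, per the submitters' processing notes; no source used here names the aligner, the counter, its strand setting or what was done with reads of several matches, so genes with close copies or on overlapping strands are uncertain. Library totals ran from 51669791 to 85890966 counts in the 10 libraries fitted. Kira8 replicate 2 and Stattic replicate 2, at 19813462 and 9275672 counts, were left out of the main results because of their make-up and are in the alternatives. Symbols and lengths came from GENCODE M21.

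Genes with enough counts were kept with edgeR's filterByExpr, scaled by TMM and fitted with edgeR 4.0.16 (R 4.3.3) in 1 quasi-likelihood model with a coefficient for each of the 4 groups, without covariates. The 6 comparisons were each inhibitor group against None, Kira8+Stattic against either inhibitor, and the interaction. P-values were adjusted over 21239 genes by Benjamini-Hochberg, and standard errors are the log2 change over the square root of F. The code was tested on simulated counts. Tables and plots used Python 3.11.15, pandas 2.3.3 and matplotlib 3.10.9.

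The members, lists and tests were chosen with earlier results of these data known. Named were all mitochondrial genes, isoform pairs, in each comparison the called genes of at least 5 CPM with the largest changes, in each complex the smallest adjusted p and extreme levels, and in each of 14 lists the smallest adjusted p-values plus known regulators. Libraries of 1 replicate number correlated at 0.0166 to 0.218 across groups, after the group means were taken off. Libraries of different numbers were not correlated, so this check cannot tell whether the numbers pair the samples. Alternatives were all 12 libraries in edgeR and in limma 3.58.1 (voom with quality weights), DESeq2 1.42.0, RLE size factors, library size alone, other filters, a replicate block and leaving out each library. Counting noise is small at these depths except for genes near the limit of 3 counts per library, which covers counting error only.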

Additional observations from a re-analysis of the deposited data

Results flagged for a closer look

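For 4 nuclear genes the test of the difference itself found that the change with Kira8 was not the same with and without Stattic. They are 4.88% of the 82 tested, all with a positive interaction, close to the 4.55% of all genes tested called in that direction, so the count does not set these genes apart. The interaction was 1.31 on the log2 scale for Atp5g1, 1.16 for Cox5a, 1.15 for Ndufs5 and 0.84 for Atp5g3. In each of them Kira8 was below None (log2 change -1.18, -0.93, -0.84 and -0.58), while Kira8+Stattic was above Kira8 (1.77, 0.73, 1.27 and 0.47). With 2 Kira8 and 2 Stattic libraries these rest on few samples: the number of genes called was 0 without Kira8 replicate 3, 1 without Kira8 replicate 1, 1 without Stattic replicate 3 and 10 without Stattic replicate 1.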

How the results depend on the processing

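With all 12 libraries edgeR called 0 of 95 genes in each comparison, with or without a replicate block, and with voom and quality weights 21 with Stattic, against 36 in the 10. Library size alone gave 19 with Stattic and 24 with Kira8+Stattic, against 36 and 41. DESeq2 called 14 with Kira8 and 7 in the interaction, against 9 and 4, while of all 21239 genes it called 5325 and 3179, against 4097 and 1810. Leaving out 1 library gave 2 to 12 genes with Kira8, 14 to 44 with Stattic, 21 to 48 with Kira8+Stattic, 8 to 53 for Kira8+Stattic over Kira8, 0 to 0 over Stattic and 0 to 10 in the interaction. A replicate block on the 10 libraries gave 13, 30, 45, 53, 0 and 4 in that order. The summed mitochondrial level over None was 1.10 with Kira8 and 1.13 with Stattic in the 10 libraries, and 25.9 and 1.84 in the 12. The summed nuclear level over None was 0.828 with Kira8, and 0.644 in the 12, and 1.14 with Kira8+Stattic, and 1.02 as a share of all counts. With all 12 libraries in edgeR the sign turned for mt-Nd1 (0.41), mt-Nd5 (2.10) and mt-Nd6 (1.43) with Stattic and mt-Nd3 with Kira8 (1.87, and 0.64 with the block), and, with the block but not without it, for Uqcr10 with Stattic (-0.23) and Sdha in Kira8+Stattic over Kira8 (0.36). The Stattic changes of mt-Nd1, mt-Nd5 and mt-Nd6 stayed below 0 with the block, and with voom none of these signs turned. The cause was not tested. Kira8 and Stattic have 2 libraries each, and genes near 1 CPM have few counts; the part of either in the calls was not tested.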

Other observations

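The other RNAs of mitochondrial DNA did not follow the messengers. Both ribosomal RNAs were called higher in all 3 inhibitor groups. How far their counts in these libraries follow the amount of ribosomal RNA in the cells was not tested. mt-Rnr1, of the small subunit, had 1628 and 1550 CPM with Kira8, 1699 and 1383 CPM with Stattic, 1361, 1713 and 1977 CPM with Kira8+Stattic, and 786, 608 and 647 CPM in None. Its log2 changes were 1.22, 1.18 and 1.31 (edgeR adjusted p = 0.00113, 0.000504 and 0.000111), and those of mt-Rnr2, of the large subunit, 1.14, 1.09 and 1.24, all called.

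Of 22 mitochondrial transfer RNA genes, 5 rose and 0 fell with Kira8, 9 rose and 6 fell with Stattic, and 10 rose and 5 fell with Kira8+Stattic. The shares that rose were 22.7%, 40.9% and 45.5%, against 9.7%, 20.1% and 20.8% of all genes tested, and those that fell with Stattic and Kira8+Stattic were 27.3% and 22.7%, against 18.9% and 20%. Levels were low, and libraries of this kind catch short RNAs poorly. mt-Tr, for arginine, had 1.42 and 1.22 CPM with Kira8, 14.1 and 17.3 CPM with Stattic, 19.0, 14.1 and 17.7 CPM with Kira8+Stattic, and 0.633, 1.45 and 0.892 CPM in None. With Stattic the smallest adjusted p-values of edgeR in this list were those of mt-Tm, mt-Tq, mt-Tr and mt-Tg. mt-Th, mt-Ts2 and mt-Tl2 are shown for their place between mt-Nd4 and mt-Nd5 and not by that rule, and went the other way from mt-Tr. mt-Th had 1.71 and 2.15 CPM with Kira8, 0.391 and 0.212 CPM with Stattic, 0.287, 0.313 and 0.323 CPM with Kira8+Stattic, and 1.99, 2.62 and 1.01 CPM in None. With Stattic the log2 changes were -2.63 for mt-Th, -2.78 for mt-Ts2 and -2.20 for mt-Tl2, all called by edgeR.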
